A study of Mus musculus with 28 samples.

Results

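The MHC class II genes were followed through injury and recovery of the mouse pancreas in 28 RNA-seq libraries of sorted macrophages. The set was defined by gene symbol and holds 9 genes of the 25301 in the deposited table: H2-Aa (NCBI Gene ID 14960), H2-Ab1 (14961), H2-Eb1 (14969), Cd74 (16149), H2-DMa (14998), H2-DMb1 (14999), H2-Oa (15001), H2-Ob (15002) and Ciita (12265). All 9 were found, and all 9 passed the filter on low values. The mice were wild-type C57BL/6J. Acute pancreatitis (AP) had been induced with caerulein, an agonist of the cholecystokinin receptor that makes acinar cells release and activate digestive enzymes. The groups were NC (3 libraries), day 0 of the pancreatitis model, called D0 (5), day 1 with lactate, called D1 AP+Lac (6), day 1 with PBS, called D1 AP+PBS (6), day 3 with lactate, called D3 AP+Lac (4), and day 3 with PBS, called D3 AP+PBS (4). The titles write Lac, read here as the lactate of the study's title, and do not spell out NC, which is used as a name. The labels give neither ages, nor doses, nor the sorting gate, and do not say that libraries came from separate animals, so p-values measure only the spread between these libraries.

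MHC class II molecules display peptides from engulfed material to CD4 T cells. An alpha and a beta chain pair in the endoplasmic reticulum and bind the invariant chain CD74, which is cut away in endosomes. The non-classical dimer H2-DM then exchanges the remaining invariant chain fragment for peptide, and the dimer H2-O, best known from B cells, restrains H2-DM. CIITA is the master coactivator of these genes. It binds no DNA itself and works through proteins on an X box and a Y box in class II promoters. It is induced by interferon gamma in macrophages and is made constitutively in dendritic and B cells. C57BL/6 mice carry a defective H2-Ea gene, so the H2-Eb1 chain forms no I-E molecule there, although its RNA is made.

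Class II promoters are shown because the members moved together and the X and Y boxes are the best known shared feature of this family. RefSeq promoters of build GRCm38.p6, covering 250 bases before to 50 bases after a gene start, were matched by symbol for 6 of the 9 members. Both strands were searched for an X core spelled GNAAC and a Y core spelled ATTGG. Of 32851 promoters of this length, 84.8% held the X core and 37.4% the Y core on either strand. The pair was then defined as an X core followed by a Y core on the gene's strand with 15 to 35 bases between them, a spacing chosen with the members' promoters in view. The pair was found in 5 of the 6 members, against 1.74% of all promoters (572) and 1 of 38 other genes listed here, the class II beta gene H2-Eb2. H2-DMb2, also a class II beta gene, was among the listed genes without the pair. The cores cannot overlap each other at this spacing. The member without the pair was H2-DMa, which has 2 annotated starts. The windows below run 5′ to 3′ on the gene's strand with the 2 cores in capitals.
H2-Aa (chr17:34287857-34287914, minus strand): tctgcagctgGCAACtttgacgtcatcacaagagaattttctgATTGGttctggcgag
H2-Eb1 (chr17:34305766-34305822, plus strand): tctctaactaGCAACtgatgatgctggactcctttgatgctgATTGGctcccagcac
H2-DMb1 (chr17:34153087-34153144, plus strand): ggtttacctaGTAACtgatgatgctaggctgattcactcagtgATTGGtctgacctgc
H2-Oa (chr17:34092293-34092350, plus strand): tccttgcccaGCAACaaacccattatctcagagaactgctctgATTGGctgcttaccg
H2-Ob (chr17:34238808-34238862, plus strand): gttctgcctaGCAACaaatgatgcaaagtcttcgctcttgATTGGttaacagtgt
The gap between the cores was 25 to 28 bases in these 5 genes, and the X core began 76 to 94 bases before the annotated start. A match is a description of letters and not a measured binding site.

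**Figure D1:**
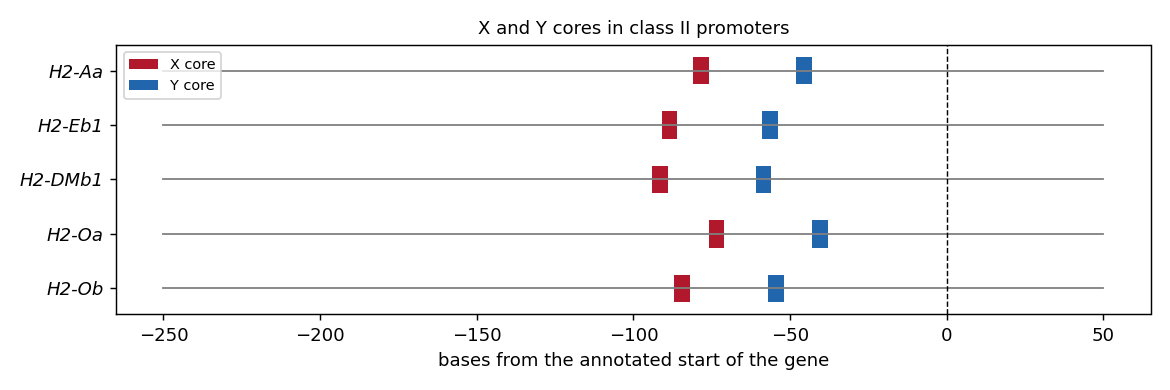
Position of the X core (red) and the Y core (blue) relative to the annotated start (dashed line, bases) in the 5 class II promoters that hold the pair. The X core begins 76 to 94 bases before the start in every one of them, and 25 to 28 bases separate the cores.

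For longer context, the 250 bases before the start of H2-Eb1 (chr17:34305617-34305866, plus strand) carry the pair near their end, with the same capitals.
H2-Eb1: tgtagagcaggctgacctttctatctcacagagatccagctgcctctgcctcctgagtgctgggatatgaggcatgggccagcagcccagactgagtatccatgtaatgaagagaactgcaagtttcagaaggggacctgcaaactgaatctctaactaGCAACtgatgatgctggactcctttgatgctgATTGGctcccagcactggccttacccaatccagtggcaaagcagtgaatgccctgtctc
In the RefSeq order on chromosome 17, H2-Oa is followed by Brd2, H2-DMa, H2-DMb2, H2-DMb1, Psmb9, Tap1, Psmb8, Tap2, H2-Ob, H2-Ab1, H2-Aa and H2-Eb1, so genes of the class I peptide supply sit among the class II genes.

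Depth was ample for every member. The values are FPKM, fragment counts scaled to transcript length and library size. Their steps correspond to 33273303 to 41060490 whole fragments per library, and the lowest fragment count of any member, that of H2-Oa in one D0 library, was 94. The labelled cell type was checked against 12 macrophage genes, Adgre1, Csf1r and C1qa among them. Their mean log2(FPKM + 1) was 7.38 to 9.01 over the 28 libraries, and it was lowest in D3 AP+PBS (7.38 to 8.06). RNA of markers of other class II-bearing cells was detected in every library, which does not by itself show such cells. None of the 13 B and plasma cell markers in the table and none of the 14 dendritic cell markers was at 0 in any library. Some were near the floor in D0, such as Cadm1 (0.031 to 0.107 FPKM) and Cr2 (0.20 to 0.82 FPKM). Others were not, such as Cd79a (5.11 to 27.4 FPKM) and Ccr7 (7.92 to 35.1 FPKM). In bulk samples such as these, fewer cells of a type and less RNA per cell cannot be told apart.

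The members differed widely in level. Averaged over the 28 libraries, Cd74 (3819 FPKM), H2-Aa (2291), H2-Ab1 (2064) and H2-Eb1 (1389) ranked 3, 11, 15 and 22 among all genes by mean FPKM. H2-DMb1 followed with 174 FPKM, and H2-Ob (43.8), H2-DMa (34.4), H2-Oa (29.7) and Ciita (28.3) were far lower. The transcript length implied by the steps was 8325 bases for H2-DMa and 1284 bases for H2-DMb1, so the gap between these partner chains in FPKM rests partly on the length used. A gene's fold change depends on that length only through the pseudocount of 1 added before the log.

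The first comparison asked what class II expression was at D0 relative to NC. Every one of the 9 genes fell, with log2 fold changes of -2.16 to -4.01, and in no case did a D0 library reach the NC range. The share of all genes separated in this way was not counted, here or in the later comparisons. By limma, with Benjamini-Hochberg adjustment over the 11960 genes tested, 9 of 9 members were lower, the largest adjusted p being 7.7e-08. Over all genes 41.4% were called lower and 19.7% higher, with a median of -0.22 against -3.26 for the members.

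The classical chains and the invariant chain fell together. H2-Ab1, the beta chain of I-A, had 411, 287, 219, 305 and 296 FPKM in D0, against 3809, 4641 and 3710.0 FPKM in NC. All 5 D0 libraries lay far below the lowest NC library (log2 fold change -3.76, SE 0.25, adjusted p = 8.9e-12 by limma). H2-Aa, its alpha chain partner, had 402, 276, 237, 304 and 289 FPKM in D0, against 4415, 5408 and 4605 FPKM in NC. H2-Aa thus showed the lowest fold change of the set (-4.01), followed by H2-Eb1, the I-E beta chain, with -3.92. H2-Eb1 had 153 to 269 FPKM over the D0 libraries, against 2749.7 to 3369.9 FPKM over the NC libraries. Cd74 had 739, 493.1, 530.0, 526.5 and 561 FPKM in D0, against 7402, 8523 and 7222 FPKM in NC. The drop of Cd74 was -3.77 on the log2 scale, and its rank by group mean was 110 in D0 and 2 in NC.

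The regulator moved with its targets. Ciita had 3.29, 3.58, 3.23, 3.28 and 3.58 FPKM in D0, against 42.5, 41.3 and 38.8 FPKM in NC. The D0 libraries were nearly identical to one another, and the log2 fold change was -3.25 (SE 0.24, adjusted p = 3.8e-11 by limma). The peptide editors fell less: H2-DMa by 2.16 and H2-DMb1 by 2.63 on the log2 scale. H2-DMa had 13.1, 11.8, 10.2, 12.2 and 14.2 FPKM in D0, against 56.3, 67.8 and 51.3 FPKM in NC. H2-Oa and H2-Ob, the chains of the H2-DM inhibitor, had log2 fold changes of -2.88 and -3.26. H2-Oa had 4.68, 3.43, 1.89, 4.87 and 3.99 FPKM in D0, against 32.2, 36.0 and 31.0 FPKM in NC. H2-Ob had 3.56, 4.68, 1.24, 5.25 and 3.92 FPKM in D0, against 45.1, 39.95 and 40.9 FPKM in NC, so one D0 library stood clearly under the other 4.

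Recovery was read in the PBS groups. At day 1, all 9 members rose again relative to D0 (9 of 9 higher by limma, against 43% of all genes higher and 19.8% lower). The members' median log2 fold change was 2.39, against 0.19 over all genes. H2-Ab1 ran from 851 FPKM over a median of 1772 to 2322 FPKM in D1 AP+PBS, against 219 to 411 FPKM in D0. These groups did not overlap for H2-Ab1 (log2 fold change 2.44, SE 0.21, adjusted p = 7.9e-10 by limma), nor for any other member, and the share over all genes was not counted. The highest fold change was that of H2-Ob (3.07) and the lowest that of H2-DMa (1.40). Ciita ran from 13.7 over a median of 23.0 to 30.8 FPKM in D1 AP+PBS, against 3.23 to 3.58 FPKM in D0, a log2 fold change of 2.39.

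**Figure D2:**
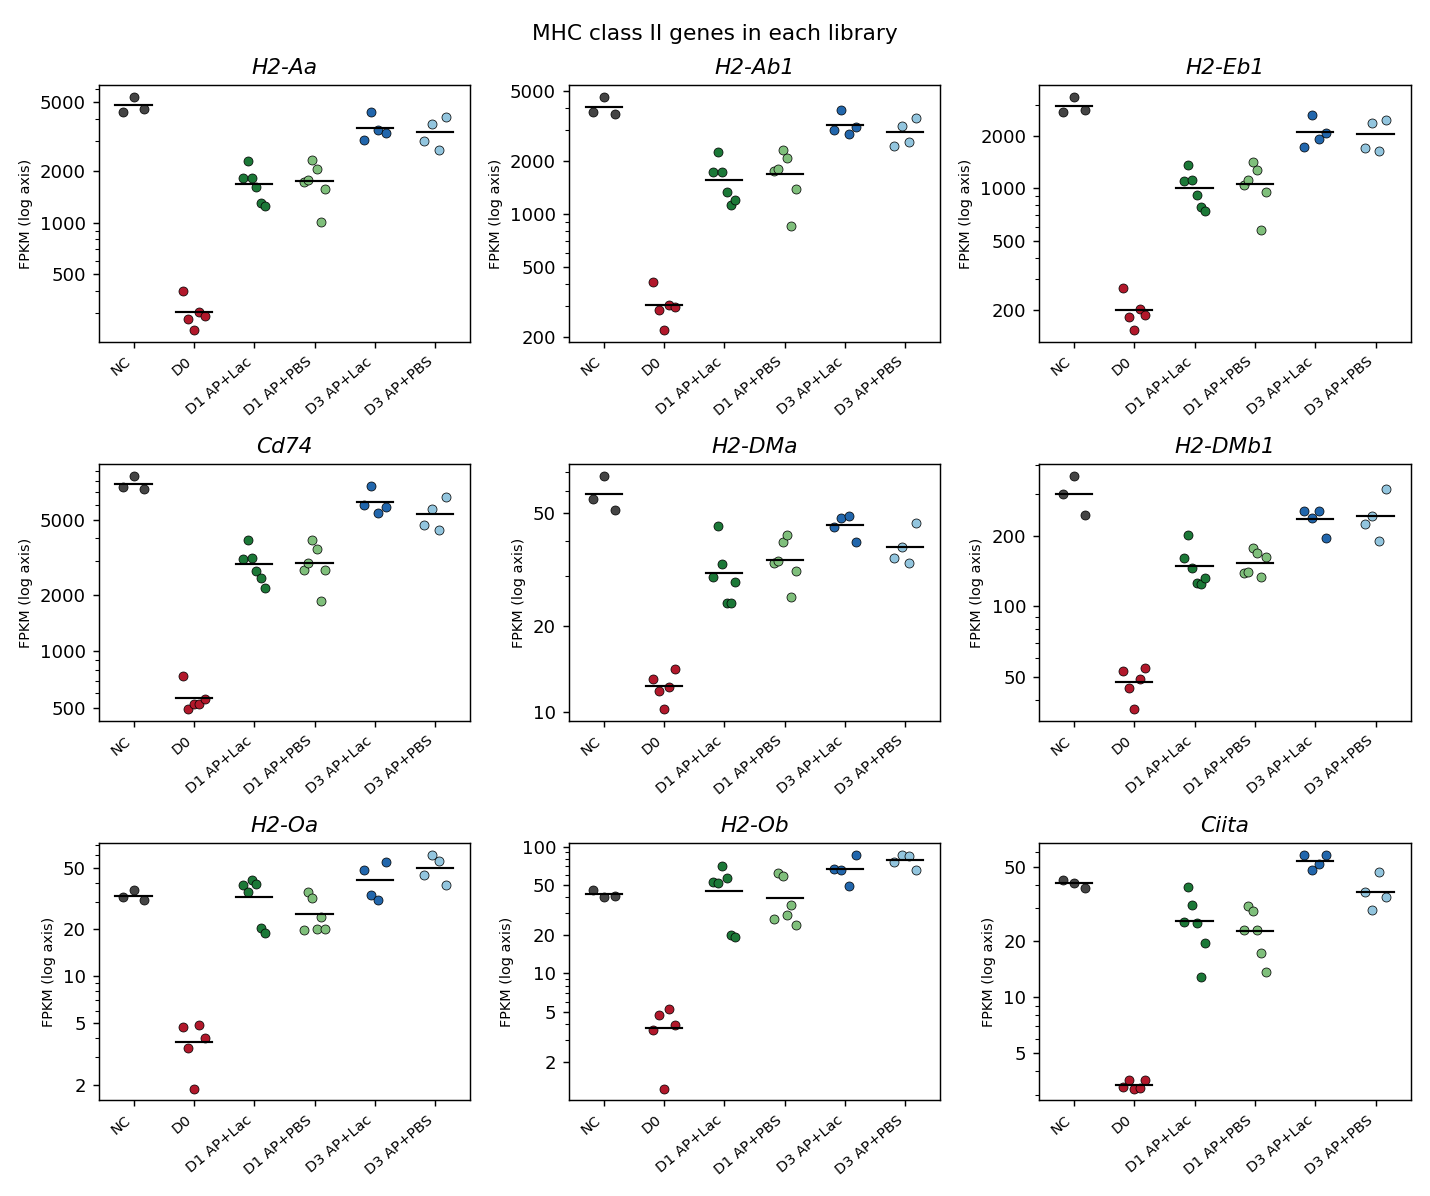
FPKM (log axis) of the 9 class II genes, 1 point per library, with the arithmetic mean of each group as a bar. For every gene the 5 D0 libraries lie below all other libraries, and Ciita is the only gene with D3 AP+Lac entirely above D3 AP+PBS.

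In D3 AP+PBS relative to D1 AP+PBS, 8 of the 9 members rose further by limma (21.5% of all genes were called higher and 12.8% lower). The members' median was 0.89, against 0.10 for all genes. H2-Ab1 had 2443, 3147, 2555 and 3530.5 FPKM in D3 AP+PBS, and the highest D1 AP+PBS library had 2322 FPKM. The groups also did not overlap for H2-Aa (log2 fold change 0.97), H2-Eb1 (0.97), Cd74 (0.89), H2-DMb1 (0.65), H2-Oa (0.97) and H2-Ob (1.06). Again, the share of all genes without overlap was not counted. Ciita was called (0.70, adjusted p = 0.013 by limma) with overlapping groups, and the adjusted p was 0.059 without the third D3 AP+PBS library. The exception was H2-DMa, with 34.7, 38.0, 33.5 and 46.2 FPKM in D3 AP+PBS, against 25.5 to 41.8 FPKM in D1 AP+PBS. Its log2 fold change of 0.15 did not pass (95% interval -0.15 to 0.46, adjusted p = 0.43). The dendritic cell marker levels of these groups did not overlap (2.76 to 3.40 in D1 AP+PBS and 4.01 to 4.55 in D3 AP+PBS). A fit with that level therefore cannot separate it from the group. With the dendritic cell marker level of each library in the model, 0 of 9 members and 0 of all 11960 genes were called in this comparison. The log2 fold changes were then 1.024 for H2-Aa, 0.81 for H2-Ab1, 0.934 for H2-Eb1, 0.962 for Cd74 and 0.834 for H2-DMb1, while H2-Oa (-0.638) and H2-Ob (-0.832) turned. With the acinar marker level 4 members were called, against 14.2% of all genes higher and 11.9% lower.

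The recovery groups were also set against NC. In D1 AP+PBS, 7 of 9 members were lower than in NC (9.18% of all genes were lower and 5.29% higher). The classical chains and Cd74 had log2 fold changes of -1.32 to -1.53, while H2-Oa (-0.42, adjusted p = 0.32 by limma) and H2-Ob (-0.19, adjusted p = 0.79) did not pass. The call for Ciita (-0.86, adjusted p = 0.011) was lost without the first NC library (-0.836, adjusted p = 0.0553), with the dendritic cell marker level in the model (-0.748, adjusted p = 0.169) and with the acinar one (-0.602, adjusted p = 0.169). In D3 AP+PBS, 1 of 9 members was lower than in NC (10.9% of all genes were lower and 10.3% higher). That one was H2-DMa, with a log2 fold change of -0.61 (adjusted p = 0.015), which became -0.50 with adjusted p = 0.084 without the second NC library. Counts in this comparison depended on the setting, from 0 to 6 members.

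The libraries of D3 AP+PBS and NC lay in different orders for different members. All 4 D3 AP+PBS libraries were below all 3 NC libraries for H2-Aa, H2-Ab1, H2-Eb1, Cd74 and H2-DMa. Of these, only H2-DMa was called by limma. How many of all genes were separated in this way was not counted. In contrast, H2-Oa had 45.0, 60.5, 55.0 and 38.5 FPKM in D3 AP+PBS, against 32.2, 36.0 and 31.0 FPKM in NC. H2-Ob had 75.7, 85.9, 84.2 and 65.2 FPKM in D3 AP+PBS, against 45.1, 39.95 and 40.9 FPKM in NC. Both H2-O chains were therefore above the NC range in every D3 AP+PBS library, although neither passed (log2 fold change 0.56 and 0.87, adjusted p = 0.15 and 0.11 by limma).

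**Figure D3:**
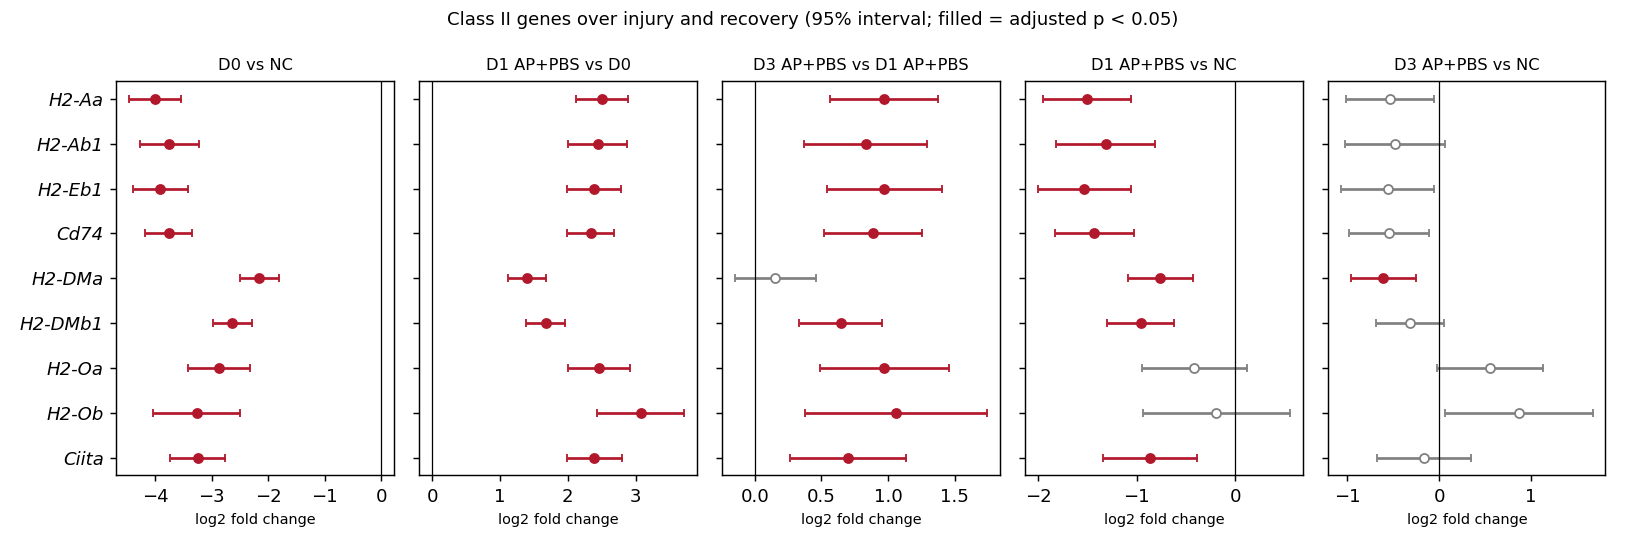
Log2 fold changes of the 9 class II genes with their 95% intervals from limma in 5 comparisons, the first-named group over the second. Filled red points have an adjusted p under 0.05. All 9 are filled and negative for D0 against NC, all 9 are filled and positive for D1 AP+PBS against D0, and H2-DMa is the only filled one for D3 AP+PBS against NC.

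The order of group means was the same for H2-Aa, H2-Ab1, H2-Eb1, Cd74 and H2-DMa: D0, D1 AP+Lac, D1 AP+PBS, D3 AP+PBS, D3 AP+Lac and NC, low to high. Neighbours within a day overlapped for all 5 genes. For H2-Ab1, the D3 AP+Lac mean of 3214 ± 462 FPKM (SD, n = 4) and the NC mean of 4053 ± 511 FPKM (SD, n = 3) came from overlapping ranges. H2-DMb1 differed from them in that D3 AP+PBS (243 ± 53.1 FPKM, SD, n = 4) lay above D3 AP+Lac (235 ± 28.1 FPKM, SD, n = 4), with overlapping libraries. H2-Oa and H2-Ob were instead highest in D3 AP+PBS, and Ciita was highest in D3 AP+Lac. H2-Ob averaged 77.8 ± 9.47 FPKM in D3 AP+PBS (SD, n = 4) and 42.0 ± 2.75 FPKM in NC (SD, n = 3).

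Proportions between members were compared within libraries, where scaling cancels except through the pseudocount of 1. That exception weighs most on members of low FPKM, such as Ciita, H2-Oa and H2-Ob in D0. Over 7 ratios and 7 comparisons, 0 of 49 two-sided exact permutation tests passed after adjustment, the lowest adjusted p being 0.058. Unadjusted exact p-values of 0.0043 to 0.0065 were found for 4 of the ratios between D1 AP+PBS and D0. The ratio of Cd74 to H2-Ab1 was 0.92 ± 0.20 in D0 (SD, n = 5) and 0.93 ± 0.05 in NC (SD, n = 3) on the log2 scale, a difference of -0.012 (exact permutation p = 0.946). The ratio of H2-DMa to H2-Ab1 was -4.50 ± 0.24 in D0 and -6.09 ± 0.05 in NC, a difference of 1.60 with every D0 library above every NC library (exact permutation p = 0.018, adjusted p = 0.097). With 5 against 3 libraries, 0.0179 is the smallest p such a test can give.

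The profiles across libraries showed the same grouping. Likeness was measured as the mean absolute difference between centred log2(FPKM + 1) profiles over the 28 libraries, a description with no test in which all genes share the same libraries. The 3 kept genes closest to H2-Ab1 were members: H2-Eb1 (0.084), Cd74 (0.10) and H2-Aa (0.11). Among non-members, Ephx1 (0.25), Rtl8c (0.27), Hepacam2 (0.32), Tmem176a (0.33) and Irf4 (0.35) were closest. Ciita was closest to Grap (0.26), Rtl8c (0.26), Irf4 (0.27), Rasgrp3 (0.28) and Cmah (0.29). H2-Ob was closest to H2-DMb2 (0.18), Ets1 (0.22), Cd79a (0.23) and Septin1 (0.23) among others. Cd79a encodes a signalling chain of the B cell receptor. H2-Ab1 stood at 0.52 from H2-Ob, with 138 kept genes closer to H2-Ob.

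Markers of several other cell types moved with the class II genes. The mean log2(FPKM + 1) of 13 B and plasma cell markers was 1.14 to 2.28 in D0, 3.53 to 5.81 in D1 AP+PBS, 4.85 to 5.73 in D3 AP+PBS and 4.52 to 4.74 in NC. That of 14 dendritic cell markers was 1.58 to 2.11 in D0, 2.76 to 3.40 in D1 AP+PBS, 4.01 to 4.55 in D3 AP+PBS and 3.78 to 3.91 in NC. Acinar markers were carried by all groups, with 3.99 to 4.90 in D0 and 8.25 to 8.90 in NC. They were 4.80 to 7.05 in D1 AP+PBS, 5.37 to 6.87 in D1 AP+Lac, 6.72 to 9.43 in D3 AP+PBS and 4.64 to 7.60 in D3 AP+Lac. T and NK cell markers were 1.035 to 2.33 in D0 and 3.52 to 4.14 in NC, and 11 of 12 fell (41.4% of all genes fell). Innate lymphoid and mast cell markers were 0.167 to 0.471 in D0 and 1.437 to 1.535 in NC. Endothelial and fibroblast markers were 1.31 to 1.95 in D0 and 2.42 to 2.88 in NC. Monocyte markers were 7.15 to 7.67 in D0 and 4.84 to 5.66 in NC, and 9 of 10 rose (19.7% of all genes rose). Neutrophil markers were 2.92 to 3.815 in D0 and 1.68 to 2.41 in NC, and 5 of the 9 tested rose. Macrophage markers were 8.71 to 8.98 in D0 and 8.58 to 8.76 in NC, and 3 of 12 rose and 3 fell (19.7% and 41.4% of all genes). Of these 12, 11 were lower in D3 AP+PBS than in D1 AP+PBS (12.8% of all genes lower). Against NC, 10 of the 12 were lower in D3 AP+PBS (10.9% of all genes lower). With the B cell level in the model the drop of H2-Ab1 in D0 was -2.99 and that of H2-Ob -1.385. All 9 were still called lower, against 22.1% of all genes lower and 24.6% higher in that fit. With the dendritic cell level the drop of H2-Ab1 was -3.717, and 7 of 9 members were called lower by limma, against 4.78% of all genes lower and 3.26% higher in that fit. The calls lost were H2-Ob (-0.196, adjusted p = 0.92) and H2-Oa (-0.265, adjusted p = 0.814). Both were also lost in D1 AP+PBS relative to D0 with that level in the model (1.146 and 0.821, adjusted p = 0.204 and 0.14), a fit in which 7.52% of all genes were higher and 7.76% lower. D0 overlapped neither NC nor D1 AP+PBS on the B cell or the dendritic cell level, so these fits cannot separate the level from the group. Which cells the RNA came from was not tested.

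**Figure D4:**
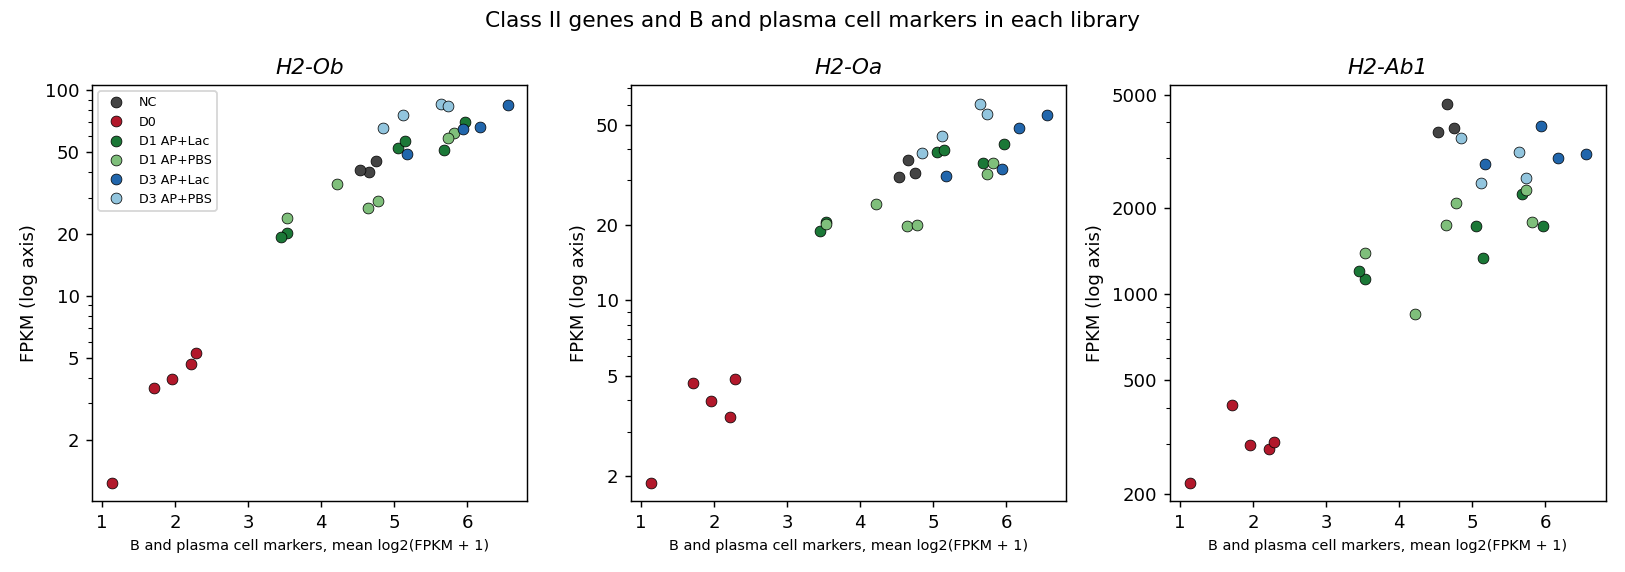
FPKM (log axis) of H2-Ob, H2-Oa and H2-Ab1 against the mean log2(FPKM + 1) of 13 B and plasma cell markers, 1 point per library, coloured by group. The D0 libraries lie at the low end of both axes. The NC libraries, at 4.52 to 4.74 on the marker axis, are among the highest for H2-Ab1 and in the middle for H2-Ob.

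The libraries numbered 5 and 6 of D1 AP+Lac stood apart from the other 4. H2-Ob was 20.2 and 19.4 FPKM there and 51.3 to 69.7 FPKM in the other 4, while the B cell marker level was 3.53 and 3.45 there and 5.06 to 5.97 in the other 4. Other marker levels differed too: T and NK cells 4.26 and 3.94 there and 5.11 to 5.48 in the other 4, endothelial cells and fibroblasts 2.24 and 2.50 there and 3.37 to 4.635 in the other 4, and macrophages 8.59 and 8.91 there and 7.69 to 8.13 in the other 4. In D1 AP+PBS, library 5 had a B cell level of 4.21 with 34.9 FPKM of H2-Ob, and libraries 1 and 4 had higher B cell levels (4.64 and 4.78) with less H2-Ob (26.8 and 28.9 FPKM). Library 6 of that group was lowest on both (3.53 and 23.9 FPKM). Its libraries 2 and 3 were highest on both (5.81 and 5.73, with 62.3 and 58.7 FPKM). Libraries 5 and 6 also had the lowest H2-Ab1 and Ciita values of both day 1 groups. Leaving these 4 libraries out, a choice made after seeing the values, left the member counts of the 4 comparisons between groups that involve day 1 as they were (9, 8, 7 and 0). In the same order, the shares of all genes higher and lower were then 45.4% and 21.3%, 25% and 16.4%, 8.82% and 10.4%, and 16.4% and 12.3%.

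Of the other genes of the locus, H2-Ea and its pseudogene were not analysed here. H2-DMb2 and H2-Eb2, second beta chain genes of the region, fell in D0 relative to NC (-3.36 and -2.60), rose in D1 AP+PBS relative to D0 (2.73 and 1.75) and rose again at day 3 (0.97 and 1.03), all called by limma. H2-DMb2 and H2-DMb1 are close copies, as are H2-Eb2 and H2-Eb1, and how fragments shared by them were assigned is not given in the sources used here.

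Of 7 factors that bind the X and Y boxes, 2 fell and 1 rose in D0 relative to NC, both smaller shares than the 41.4% and 19.7% of all genes. Rfx5, a subunit of the X box complex RFX, had 2.62, 2.84, 3.16, 2.11 and 2.58 FPKM in D0, against 7.40, 6.38 and 7.95 FPKM in NC. Its groups did not overlap (log2 fold change -1.17, adjusted p = 6.8e-06 by limma). Creb1 fell by 0.78 on the log2 scale, while Nfya, a subunit of the Y box factor NF-Y, rose by 0.25. In D1 AP+PBS relative to D0, 3 of these factors rose and 1 fell, with 0.99 for Rfx5 (43% of all genes rose and 19.8% fell). In D3 AP+PBS relative to D1 AP+PBS, 3 rose and 0 fell (21.5% and 12.8% of all genes).

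Of 14 inducers and repressors of Ciita, 2 rose and 6 fell in D0 relative to NC, about the shares over all genes (19.7% and 41.4%). Among those that fell were Irf4 (-3.36), a factor of B and dendritic cells, and Ifngr1 (-0.70), a chain of the interferon gamma receptor. Spi1, which encodes the myeloid factor PU.1, rose by 0.66. In D1 AP+PBS relative to D0, 7 rose and 2 fell, near the shares over all genes (43% and 19.8%), with 2.66 for Irf4.

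Genes of peptide processing went the other way. Of 6 such genes, 5 rose in D0 relative to NC and 0 fell (19.7% and 41.4% of all genes). Those that rose were Ctsl (3.33), Lgmn (2.15), Ctsb (1.28), Ctss (1.26) and Ifi30 (0.84). Ctss and Ctsl encode cathepsins that cut the invariant chain. Ctsl had 398, 455, 313, 401 and 310 FPKM in D0, against 32.1, 36.7 and 39.7 FPKM in NC, so the groups were widely apart. In D1 AP+PBS relative to D0, 4 of the 6 fell (19.8% of all genes fell). In D3 AP+PBS relative to D1 AP+PBS, 3 fell further (12.8% of all genes). Of the turnover genes, Cd83, whose protein protects class II from the ubiquitin ligase MARCH1, fell by 2.61 in D0 relative to NC, and Marchf1 fell by 0.53. Both rose in D1 AP+PBS relative to D0 (2.55 and 0.74). Among CD74 ligands and partners in D0, Cd44, a signalling partner of CD74, rose by 0.76 and Cxcr4 fell by 1.29, while the ligand gene Mif did not pass (0.78, adjusted p = 0.063).

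Of 9 class I and peptide supply genes, 0 rose and 0 fell in D0 relative to NC by limma (19.7% and 41.4% of all genes). None had an unadjusted p under 0.05. Their median log2 fold change was 0.10. In D3 AP+PBS relative to NC, 6 of the 9 rose (10.3% of all genes rose), led by Nlrc5 (1.17), the class I counterpart of CIITA, and Tap1 (0.99).

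The last comparisons asked whether lactate changed class II expression. At day 1 the members did not pass: 0 of 9 were called higher or lower by limma, and 0 had an unadjusted p under 0.05 (5.16% of all genes were higher and 4.56% lower). The counts over all genes, 617 higher and 545 lower, varied widely with the setting: 0 and 0 in the compared groups alone or with the dendritic cell marker level, 124 and 67 without D1 AP+PBS 1, 132 and 78 without D1 AP+PBS 4, and 1959 and 1467 without libraries 5 and 6 of both groups. H2-Ab1 ran from 1133 over a median of 1536 to 2245 FPKM in D1 AP+Lac and from 851 over a median of 1772 to 2322 FPKM in D1 AP+PBS. The 2 groups overlapped for all 9 genes. The 95% intervals of the log2 fold change were -0.50 to 0.32 for H2-Ab1, -0.41 to 0.32 for H2-Aa, -0.33 to 0.32 for Cd74 and -0.25 to 0.52 for Ciita. The widest was that of H2-Ob (-0.47 to 0.75).

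Of the 14 inducers and repressors of Ciita, 6 rose in D1 AP+Lac relative to D1 AP+PBS and 1 fell (5.16% and 4.56% of all genes). Ifng, the cytokine gene, had 3.87 to 16.7 FPKM in D1 AP+Lac, against 0.78 to 5.44 FPKM in D1 AP+PBS, a log2 fold change of 1.86 (SE 0.30, adjusted p = 0.0045 by limma) with overlapping groups. Socs1 (1.70) and Jak2 (0.79), genes of the interferon gamma receptor pathway, also rose. Of the 9 class I and peptide supply genes, 6 rose: Nlrc5 (1.27), Tap1 (0.91), Tapbp (0.76), Psmb9 (0.74), Tap2 (0.72) and Psmb8 (0.60). The genes of the class I chains themselves were not called by limma: H2-K1 (0.344, adjusted p = 0.149), H2-D1 (0.168, adjusted p = 0.449) and B2m (0.396, adjusted p = 0.185). All of these calls ended under 2 of the settings used for the members, a check added after seeing the data. In other settings the count of the 14 also varied, from 4 higher and 0 lower without D1 AP+PBS 4 to 7 and 1 without D1 AP+PBS 5. By limma, adjusted p was 0.0937 for Irf1 without D1 AP+PBS 1. It was 0.121 for Ifngr1, the 1 that fell, without D1 AP+PBS 4. The count of the 9 was 6 or 8 higher in those other settings. In the compared groups alone, 0 of the 14 and 0 of the 9 genes were called, with unchanged folds and adjusted p = 0.116 for Ifng, Socs1, Jak2, Nlrc5 and Tap1. With the dendritic cell marker level in the model, 0 were called in either list, with 1.755 for Ifng, 1.754 for Socs1, 0.527 for Jak2, 1.193 for Nlrc5 and 0.826 for Tap1 (adjusted p = 0.319 to 0.337). Whether class I and class II genes differed in their response was not tested. The 12 T and NK cell markers, whose cells make interferon gamma, were 3.94 to 5.48 in D1 AP+Lac and 3.40 to 4.89 in D1 AP+PBS, and the dendritic cell markers were 3.51 to 3.93 in D1 AP+Lac and 2.76 to 3.40 in D1 AP+PBS. The day 1 groups did not overlap on the dendritic cell level, so the fit with that level cannot separate it from lactate. The part of these markers in the results was not tested.

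At day 3, 0 of 9 members were called with lactate (0.192% of all genes were higher and 0.184% lower), and 1 had an unadjusted p under 0.05. That one was Ciita, with 58.1, 48.2, 51.8 and 58.0 FPKM in D3 AP+Lac, against 36.6, 29.5, 46.9 and 34.5 FPKM in D3 AP+PBS. Every D3 AP+Lac library was above every D3 AP+PBS library for Ciita, with a log2 fold change of 0.55 (95% interval 0.08 to 1.03) and adjusted p = 0.21. H2-Ab1 had 3008, 3891, 2858 and 3101 FPKM in D3 AP+Lac, against 2443, 3147, 2555 and 3530.5 FPKM in D3 AP+PBS, and these groups overlapped, as did those of the other members except Ciita. The class II chains and Cd74 had 95% intervals of -0.36 to 0.65 for H2-Ab1, -0.36 to 0.53 for H2-Aa and -0.19 to 0.62 for Cd74. None of the 9 class I and peptide supply genes and none of the 14 inducers and repressors was called by limma at day 3, while 1 and 2 of them had an unadjusted p under 0.05.

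The difference between the lactate effects, day 3 minus day 1, was called for 0 of 9 members, with 0 unadjusted p-values under 0.05 (4.76% of all genes were higher and 5.94% lower). The lowest unadjusted p was that of H2-DMa (0.42, 95% interval -0.01 to 0.84, adjusted p = 0.20 by limma). The same difference was called lower for 7 of the 9 class I and peptide supply genes and for 4 of the 14 inducers and repressors, among them Ifng (-2.64) and Socs1 (-2.06). With the dendritic cell marker level in the model, 0 of all genes were called for this difference, and the day 1 groups did not overlap on that level.

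**Figure D5:**
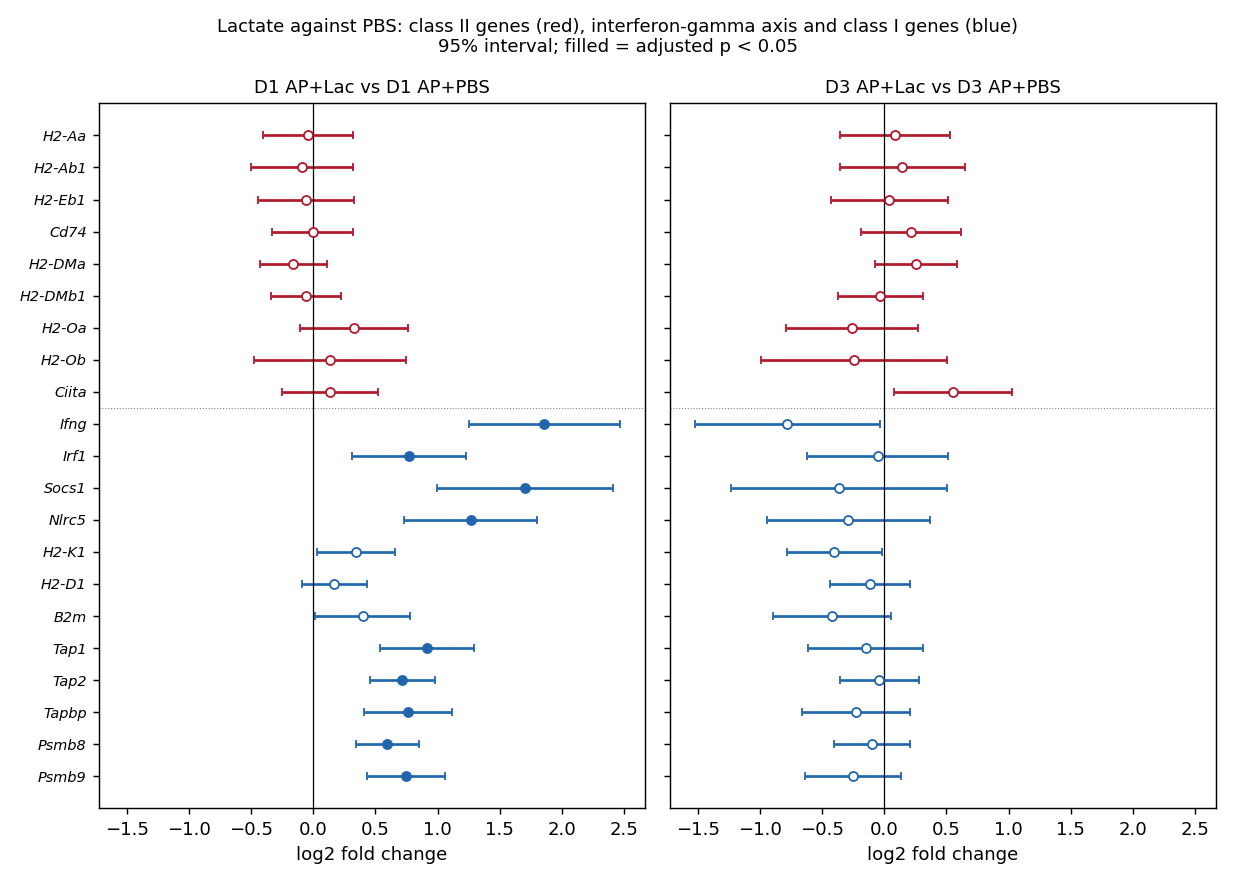
Log2 fold changes with 95% intervals from limma for lactate over PBS at day 1 (left) and day 3 (right), with the 9 class II genes in red and interferon gamma axis and class I genes in blue; filled points have an adjusted p under 0.05. No red point is filled on either day. At day 1, Ifng, Irf1, Socs1, Nlrc5, Tap1, Tap2, Tapbp, Psmb8 and Psmb9 are filled, and at day 3 none is.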

How the data were processed

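Libraries were made from 10 ng of total RNA, per the labels' protocols, and fastp and R 3.2.0 are the tools listed in the submitters' processing notes. Aligner, counting rule, strand setting and build were not stated. The authors deposited FPKM per gene and library. FPKM are shares of a library, so abundant RNA of other cells lowers them. The steps gave whole fragments for 100% of values (tolerance 0.001). All 55 pairs of libraries within groups differed far beyond counting noise (chi-square over degrees of freedom at least 26.4).

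Groups and numbers came from the titles. limma 3.58.1 (R 4.3.3) was run on log2(FPKM + 1), which understates changes of low genes, for the 11960 genes that reached an FPKM of 1 in 3 or more libraries. The model had 1 mean per group, a spread shared by all 28 libraries, trended robust moderation, and a Benjamini-Hochberg threshold of 0.05 over all genes. Tests were two-sided. Within-library ratios were compared by exact permutation. Whether groups overlapped was looked at for the genes named, and the share over all genes was not counted. The fit was tested on simulated data.

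All 9 members are named, with up to 4 genes of smallest p per pathway list and comparison; other pathway genes named or plotted were picked after their values were seen. A few genes that the rule would name are not reported here. Members, lists and tests were chosen with earlier results of these data known. Alternatives were another pseudocount, filter, scaling, moderation or covariate, the compared groups alone, a replicate block and left-out libraries. Tables and plots used Python 3.11.15, pandas 2.3.3, numpy 2.4.6 and matplotlib 3.10.9.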

Additional observations from a re-analysis of the deposited data

How the results depend on the processing

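Of the 34 member fold changes called, 20 kept their call and direction under every alternative. Member counts were within 1.5 times the reported count except as follows, and the cause was not tested. For D3 AP+PBS over D1 AP+PBS (8), 0 were called with the dendritic cell covariate, as were 0 of all genes. The acinar one gave 4 (14.2% of all genes higher and 11.9% lower). Under the dendritic cell covariate H2-Aa, H2-Ab1, H2-Eb1, H2-DMb1 and Cd74 kept fold changes of 0.81 to 1.024. For D3 AP+PBS over NC (1), 0 were called with the dendritic cell covariate (1.54% of all genes higher and 5.58% lower). The acinar covariate gave 2, 1 of them higher (13.9% and 11.4% of all genes). The B cell one gave 6 (11.7% and 13.3%), quantile normalization 2 (9.65% and 14.3%) and median-ratio scaling 4 (6.76% and 13.3%). The compared groups alone gave 3, 2 of them higher (13.9% and 10.8%). Single libraries left out gave 0 to 2: 0 without NC 2 (6.69% and 9.22%) and 2 without D3 AP+PBS 4 (10% and 9.51%). With the B cell covariate, 2 were called for D3 AP+Lac over D3 AP+PBS (1.71% of all genes higher and 3.19% lower). For the difference between lactate effects 2 were called as well (9.71% and 13.3%), H2-Oa and H2-Ob being lower in both. Without day 1 libraries 5 and 6, H2-Oa was the 1 call in that difference (13.3% of all genes higher and 15.2% lower).

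Whether the numbers in the titles pair the libraries was not settled. For lactate against PBS at day 1, correlations of same-numbered deviations were 0.493, 0.61, 0.348 and 0.529 for numbers 2, 3, 5 and 6. They were -0.34 and -0.214 for numbers 1 and 4. At day 3 they were -0.53 to 0.28. Differently numbered libraries were not compared, so these values cannot tell pairing from its absence. A replicate block gave 2 calls for D3 AP+PBS over NC (12.2% of all genes higher and 10.8% lower). H2-Ob was then 0.058 in D1 AP+PBS over NC and 0.799 (adjusted p = 0.054 by limma) in D3 AP+PBS over D1 AP+PBS.

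Called directions turned in 2 cases, both with the dendritic cell covariate and not called there: H2-Oa -0.638 and H2-Ob -0.832 in D3 AP+PBS over D1 AP+PBS. Of the pairs of groups compared, only D3 AP+Lac and D3 AP+PBS overlapped on that covariate. For the other pairs these fits cannot separate it from the group. All other turns were of uncalled values. With that covariate they were, over NC, H2-Oa 0.556 and H2-Ob 0.95 at day 1 and H2-Oa -0.082 at day 3. For lactate at day 1 they were H2-DMa 0.035, H2-DMb1 0.041, H2-Oa -0.528, H2-Ob -0.87 and Cd74 0.034. At day 3 they were H2-Oa 0.449 and H2-Ob 0.592, and for the difference H2-DMb1 -0.155, H2-Oa 0.977 and H2-Ob 1.462. The acinar covariate gave H2-Ob 0.368 for D1 AP+PBS over NC, H2-Aa 0.022, H2-Eb1 0.016 and Cd74 0.043 for lactate at day 1, and H2-Oa 0.014 and H2-Ob 0.18 at day 3. Quantile normalization gave H2-Aa 0.109, H2-Eb1 0.016 and Cd74 0.14 at day 1 and H2-DMb1 0.08 at day 3. The B cell covariate gave H2-Aa -0.044, H2-Ab1 -0.028 and H2-Eb1 -0.105 at day 3, and H2-Eb1 -0.041 and H2-DMb1 -0.008 for the difference. Without day 1 libraries 5 and 6, H2-DMb1 was 0.012 at day 1 and -0.043 for the difference. A pseudocount of 0.1 gave -0.218 for the ratio of H2-Ab1 to Ciita in D1 AP+PBS over D0.

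With single libraries left out, uncalled lactate values at day 1 ranged from -0.19 to 0.047 for H2-Aa, -0.275 to 0.014 for H2-Ab1, -0.224 to 0.033 for H2-Eb1, -0.02 to 0.339 for H2-Ob and -0.129 to 0.084 for Cd74. At day 3 they ranged from -0.025 to 0.191 for H2-Aa, -0.074 to 0.139 for H2-Eb1 and -0.14 to 0.103 for H2-DMb1, and for the difference from -0.014 to 0.266 for H2-Eb1 and -0.082 to 0.161 for H2-DMb1. The ratio differences ranged from -0.099 to 0.023 for Cd74 to H2-Ab1 (D0 over NC), -0.047 to 0.175 for H2-Ab1 to Ciita (D1 AP+PBS over D0), -0.13 to 0.035 for H2-DMa to H2-Ab1 (lactate, day 1), -0.006 to 0.312 for H2-Ab1 to Ciita (D3 AP+PBS over D1 AP+PBS) and -0.075 to 0.003 for H2-Aa to H2-Ab1 (D3 AP+PBS over NC).

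The scaling moved the split of all genes. For D0 over NC, 2361 were higher and 4948 lower as reported (median -0.22), 3597 and 3858 after median-ratio scaling (median -0.04), and 3558 and 2755 after quantile normalization. For D1 AP+PBS over D0, 5147 were higher and 2374 lower as reported, 3918 and 3808 after median-ratio scaling, and 2835 and 3666 after quantile normalization. For D3 AP+PBS over D1 AP+PBS, 2569 were higher and 1534 lower as reported, 1862 and 2020 after median-ratio scaling, and 1771 and 2185 after quantile normalization. For D3 AP+PBS over NC, 1236 were higher and 1299 lower as reported, 809 and 1593 after median-ratio scaling, and 1154 and 1710 after quantile normalization. Under both scalings 9, 9 and 8 members were called in the first 3 of these comparisons.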
